A study of Mus musculus with 6 samples.

Results

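Transcripts of 9 genes of Fcγ receptor signalling were followed in mouse liver after ischemia-reperfusion (I/R), with and without ginsenoside Rk2. They are the Fcγ receptor genes Fcgr1, Fcgr2b, Fcgr3 and Fcgr4, the signalling adaptors Fcer1g and Tyrobp, and the tyrosine kinases Lyn, Syk and Btk. They were chosen by name, and all 9 were found among the 15454 rows of the count table and the 21948 rows of the table of FPKM (fragments per 1000000 mapped and per kilobase of transcript). The livers came from male C57BL/6 mice aged 8 to 10 weeks, and 75% of each liver had undergone warm ischemia, lasting 1 h and followed by 6 h of reperfusion per the study's methods. The I/R group (n = 3) had been given vehicle solution, and the I/R+Rk2 group (n = 3) had been given ginsenoside Rk2, a saponin from ginseng, dissolved in that vehicle and dosed at 30 mg/kg per the study's methods. Dosing was done on 2 occasions, the first 2 days ahead of the operation and the other as blood flow returned. Sham-operated livers were not analysed here, so each difference is between injured livers with and without Rk2.

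Fcγ receptors bind the constant part of IgG and couple antibody recognition to myeloid cell responses. The activating receptors, encoded in the mouse by Fcgr1, Fcgr3 and Fcgr4, signal through FcRγ, the product of Fcer1g, whose immunoreceptor tyrosine-based activation motif (ITAM) is phosphorylated by Src-family kinases such as LYN and then recruits SYK. FcγRIIb, the product of Fcgr2b, carries an inhibitory motif (ITIM) instead. In the liver, activating Fcγ receptors are known from Kupffer cells, monocytes and neutrophils, while Fcgr2b is also a well-known product of the sinusoidal endothelium.

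Of the 9 genes, 8 had lower counts in the I/R+Rk2 livers and passed the test, and 7 of these were lower by more than 2-fold. The activating receptors, both adaptors, Syk, Lyn and Btk made up the 8. The filter on low counts kept Btk through its I/R livers alone, so that gene could only come out lower. The counts of 8 and 7 carry that limit. Fcgr2b, the inhibitory receptor, was the exception, with overlapping groups and a log2 fold change of -0.18 ± 0.14 (SE). The test was edgeR's quasi-likelihood test across 12411 genes with Benjamini-Hochberg adjustment, and a gene was called at an adjusted p below 0.05. Such calls were frequent in these livers, at 43.9% of all genes tested, with 23.7% lower and 20.3% higher. A call with a fold above 2 was made for 11.4% of the genes tested in the lower direction. The groups did not overlap for 8 of the 9 genes, and 30.3% of the genes tested were lower in this way. The median log2 fold change was -1.94 over the 9 genes and -0.00759 over all genes tested.

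Library totals ranged from 16809613 to 35618074 counts, so that 3 counts were worth 0.0888 to 0.184 counts per 1000000 (CPM) after scaling by the trimmed mean of M values (TMM). Total RNA of liver tissue was sequenced, and fewer cells of a type and less RNA per cell cannot be told apart in it. Which part of the liver was sampled was not given in the sources used here. As a check of the tissue label, the hepatocyte gene Alb was at 49230 ± 4366 CPM in I/R livers (SD, n = 3). Leukocyte marker transcripts moved with the treatment: all 6 pan-leukocyte markers were lower in the I/R+Rk2 livers, and their summed level was 135 to 190 CPM in I/R and 34.0 to 50.1 CPM in I/R+Rk2 livers. All 9 monocyte markers were lower as well, at 185 to 218 against 9.95 to 17.5 CPM summed, as were 9 of 11 neutrophil markers, at 1060 to 1390 against 136 to 283 CPM. Lcn2, which injured hepatocytes also make, carried much of that sum, and without it the sum was 483 to 599 against 91.6 to 221 CPM. Beside these marker counts, 23.7% of all genes tested were lower. Some markers were kept by the filter on low counts through the I/R livers alone and could only come out lower. An example is Gpr141 of the monocyte list, at 39 to 86 counts in I/R and 2 to 4 in I/R+Rk2 livers. The part of these marker shifts in the results that follow was not tested.

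The Fcγ receptor genes lie in 2 places of the mouse genome (build mm10, GENCODE M21). Fcgr2b (chr1:170958617-170976547, minus strand), Fcgr4 (chr1:171018920-171029761, plus strand), Fcgr3 (chr1:171051174-171064935, minus strand) and Fcer1g (chr1:171229572-171234365, minus strand) are neighbours on chromosome 1, and Fcgr1 lies at chr3:96282909-96293969 on the minus strand. Fcgr2b and Fcgr3 are close relatives. Their coding sequences, of 1020 and 801 bases, were 83.9% identical over 784 aligned bases, and the other pairs of the 4 receptors were 58.6% to 63.5% identical. The longest run that they shared without a difference was 129 bases, at coding positions 278 to 406 of Fcgr2b and 263 to 391 of Fcgr3, and it is shown because reads within it cannot be assigned to either gene by sequence alone.
Fcgr2b and Fcgr3 shared coding run: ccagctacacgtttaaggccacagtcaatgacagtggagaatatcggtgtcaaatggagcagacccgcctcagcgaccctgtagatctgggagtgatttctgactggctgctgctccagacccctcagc
Of all 100-base windows of their annotated transcripts, 1.4% of those of Fcgr2b also occurred in another gene, and 2.54% of those of Fcgr3 did. At 50 bases these shares were 4.38% and 9.58%. A small part of their counts may therefore be exchanged between these 2 genes, and the values of both carry that uncertainty. Windows of Fcgr1, Fcgr4, Fcer1g, Tyrobp, Syk and Btk were found in no other gene at either length, whereas Lyn shared 7.9% of its 100-base windows with Gm11787.

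Promoter sequences from RefSeq (GRCm38.p6) were found for 7 of the 9 genes, and Tyrobp and Lyn had no entry. Each line below covers 100 bases before to 50 bases after an annotated start, 5′ to 3′ on the strand of the gene. Lines are given for the 4 genes that matched the purine-rich word GAGGAAG, a word of the PU.1 type, or its reverse complement CTTCCTC. Fcgr2b, which did not match this word, is given as well. Capitals mark the match. PU.1, the product of Spi1, is a master regulator of myeloid genes and is known to act at Fcγ receptor promoters.
Fcgr1 (chr3:96293920-96294069, minus strand): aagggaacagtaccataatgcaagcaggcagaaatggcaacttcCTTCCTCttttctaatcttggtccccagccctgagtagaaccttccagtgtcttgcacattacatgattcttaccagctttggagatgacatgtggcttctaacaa
Fcgr3 (chr1:171059354-171059503, minus strand): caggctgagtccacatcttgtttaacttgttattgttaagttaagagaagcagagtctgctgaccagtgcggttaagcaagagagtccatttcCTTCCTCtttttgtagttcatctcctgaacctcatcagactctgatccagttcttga
Fcgr4 (chr1:171018826-171018975, plus strand): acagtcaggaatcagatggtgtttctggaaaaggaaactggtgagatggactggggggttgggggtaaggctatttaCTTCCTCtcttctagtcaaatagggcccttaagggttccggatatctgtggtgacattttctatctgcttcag
Btk (chrX:134583091-134583240, minus strand): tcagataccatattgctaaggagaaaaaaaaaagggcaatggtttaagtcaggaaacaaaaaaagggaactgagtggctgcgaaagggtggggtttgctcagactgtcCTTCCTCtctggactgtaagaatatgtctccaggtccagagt
Fcgr2b (chr1:170976022-170976171, minus strand): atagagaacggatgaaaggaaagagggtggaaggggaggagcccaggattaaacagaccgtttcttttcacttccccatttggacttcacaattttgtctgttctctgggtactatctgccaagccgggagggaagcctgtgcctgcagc
The word stood on the reverse strand in each of the 4, with its first base at -56 in Fcgr1, -7 in Fcgr3, -23 in Fcgr4 and 9 bases into the transcript in Btk. Fcgr3 has a second annotated start close by, from which the same word lies at -16. Over the full 300-base windows, from 250 bases before to 50 after a start, GAGGAAG occurred on either strand in 13.6% of 32851 windows. The windows of Fcgr2b, Fcer1g and Syk did not hold these letters. The shorter run GGAA within that word does occur in the Fcgr2b line, and other forms of a PU.1-type site were not searched. A word of the interferon-regulatory factor type, GAAA and GAAA spaced by 2 free bases, was present in the Fcgr4 window at -73 and in 3.44% of all windows, and a STAT word, TTCNNNGAA, was present in the Fcgr1 window at -109 and in 8.3%. The words were chosen after the sequences had been seen and describe letters in a window, not occupied sites.

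**Figure D1:**
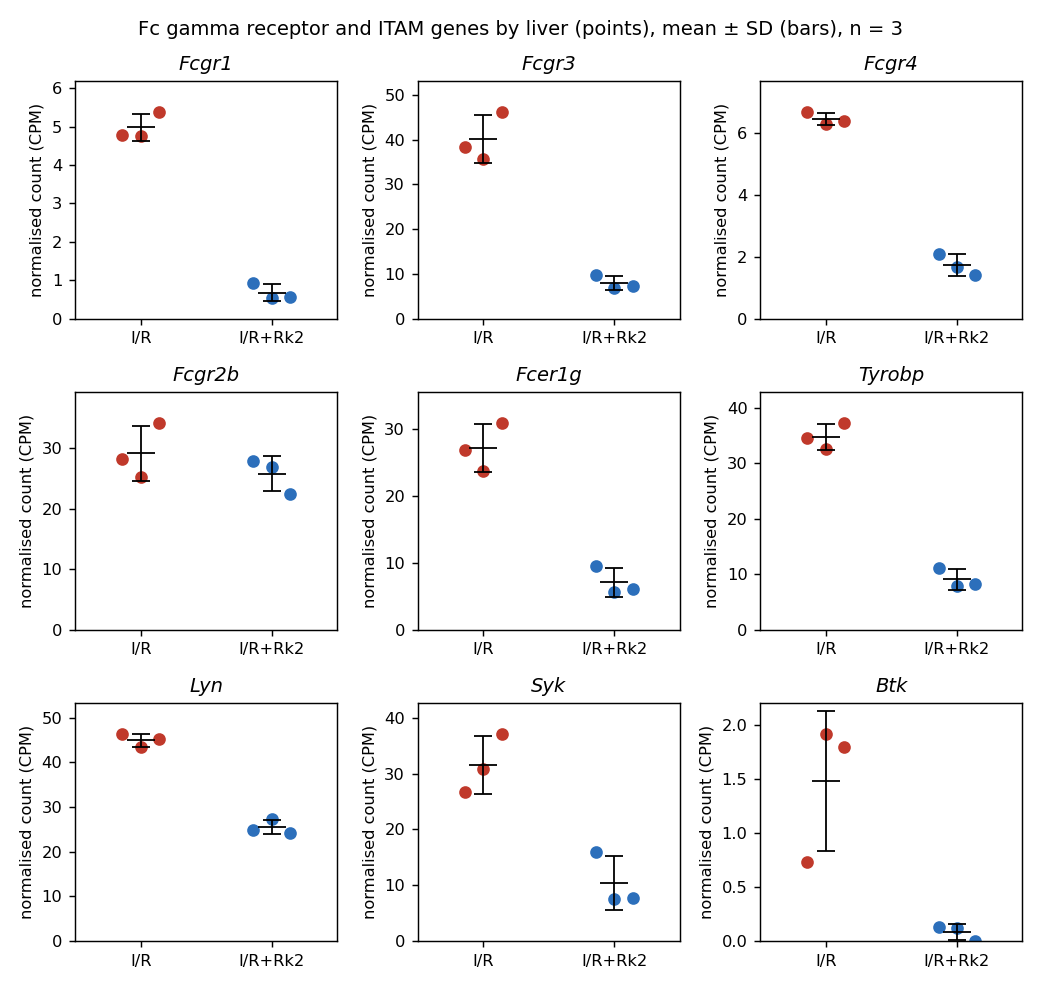
Normalised counts (CPM, linear axis from 0) of the 9 genes in each liver; points are livers, bars are mean ± SD (n = 3 per group). The groups are separated for 8 genes and overlap for Fcgr2b, at 25.13 to 34.08 CPM in I/R and 22.41 to 27.91 CPM in I/R+Rk2 livers.

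Fcgr3, the low-affinity activating receptor, was the most abundant receptor transcript of the I/R livers per length, at 29.85 ± 3.66 FPKM (SD, n = 3). It had 38.37, 35.79 and 46.20 CPM in replicates 1 to 3. In the I/R+Rk2 livers it stood at 9.709, 6.809 and 7.246 CPM. The lowest I/R liver held more than the highest I/R+Rk2 liver, and the groups did not overlap. Fcgr3 fell by 2.34 ± 0.17 on the log2 scale (adjusted p = 0.000266), which is 5.07-fold lower.

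Fcgr1 encodes the high-affinity IgG receptor, a surface protein of monocytes and macrophages. Its level was 4.796, 4.761 and 5.382 CPM in the I/R livers, and it was 0.9247, 0.5329 and 0.5527 CPM in the I/R+Rk2 livers. These I/R+Rk2 values rest on 22, 18 and 9 counts, above the 3-count floor in each liver. Fcgr1 showed the largest fold among the 4 receptors, 7.39-fold lower, with a log2 fold change of -2.89 ± 0.26 (adjusted p = 0.00051).

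Fcgr4, an activating receptor of monocytes, macrophages and neutrophils, was at 6.673, 6.283 and 6.378 CPM in the I/R livers, a spread of 3.16% of the mean. After Rk2 it was at 2.101, 1.658 and 1.412 CPM. No I/R+Rk2 liver came near an I/R liver, and the gene was 3.71-fold lower, with a log2 fold change of -1.89 ± 0.19 (adjusted p = 0.000683). The test was of each gene between groups, and whether the 3 activating receptors differed from each other in their change was not tested.

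Fcgr2b was at 28.15, 25.13 and 34.08 CPM in the I/R livers, and at 27.91, 26.88 and 22.41 CPM in the I/R+Rk2 livers. The I/R+Rk2 replicates 1 and 2 lay within the I/R range, and replicate 3 lay below it. Its means of 29.12 ± 4.55 and 25.73 ± 2.92 CPM (SD, n = 3) differed by less than the SD of the I/R livers, and the adjusted p was 0.346. These values rest on 365 to 908 counts per library. Leaving out 1 liver at a time gave log2 fold changes from -0.27 to -0.05, and the value nearest 0 came without I/R replicate 3, the highest liver of its group.

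On the FPKM scale, Fcgr2b looked different. It was at 18.03, 14.03 and 15.13 FPKM in the I/R livers and at 13.20, 10.36 and 10.12 FPKM in the I/R+Rk2 livers, with no overlap, and limma on log2(FPKM + 1) gave a log2 fold change of -0.45 among genes with a mean of at least 1 FPKM (adjusted p = 0.0364) and the same value without that filter (adjusted p = 0.0566). The 2 tables imply a transcript length for each gene and liver, from the count divided by FPKM and by the library total. For Fcgr2b that length was 1782, 1830 and 2280 bases in the I/R livers and 2062, 2461 and 2025 bases in the I/R+Rk2 livers, so that the highest was 1.38 times the lowest. The same quotient was 1.23 for Syk, 1.08 for Fcgr1 and Lyn, 1.05 for Btk, 1.04 for Fcgr3, and 1.01 for Fcgr4, Fcer1g and Tyrobp. Fcgr2b has 7 annotated transcripts with a longest of 3544 bases, and an antisense gene, Gm38204, overlaps 155 of its exonic bases on the opposite strand. No count fit of this gene on its own called it, with -0.33 for library size alone as the scaling (adjusted p = 0.131), and 2 of 3 FPKM fits did. The count and FPKM fits differ in test, scaling and filter as well as in length, and these were not separated.

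The make-up of the receptor pool changed along with its size. Per length, the summed level of the 4 receptors was 56.5, 46.4 and 55.0 FPKM in the I/R livers and 21.9, 16.2 and 15.9 FPKM in the I/R+Rk2 livers. Fcgr3 held 54.6%, 55.6% and 59.9% of that sum under vehicle and 31.2%, 27.7% and 29.2% of it under Rk2. Fcgr2b held 31.9%, 30.2% and 27.5% under vehicle and 60.4%, 64.0% and 63.6% under Rk2. The leading receptor transcript was thus Fcgr3 in every I/R liver and Fcgr2b in every I/R+Rk2 liver.

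The level of Fcgr3 over that of Fcgr2b in FPKM was 1.71, 1.84 and 2.18 under vehicle and 0.517, 0.434 and 0.458 under Rk2. Taken as a ratio of counts, which needs no length, it was 1.38 ± 0.04 and 0.308 ± 0.049 (SD, n = 3). In log2 the mean count ratio was 0.47 in I/R and -1.71 in I/R+Rk2 livers, a difference of -2.18 (exact two-sided permutation p = 0.1, the smallest that 3 livers against 3 allow). This ratio was chosen after the values had been seen. With counts per kilobase of the longest annotated transcript in place of FPKM, the mean level of Fcgr3 over Fcgr2b was 3.63 and 0.811, so the order of the receptors still turned around while the sizes changed. Fcgr4 and Fcgr1 were minor transcripts in both groups, at 9.69% ± 0.83 and 3.72% ± 0.18 of the receptor sum in I/R livers and 6.75% ± 0.58 and 1.25% ± 0.21 in I/R+Rk2 livers.

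**Figure D2:**
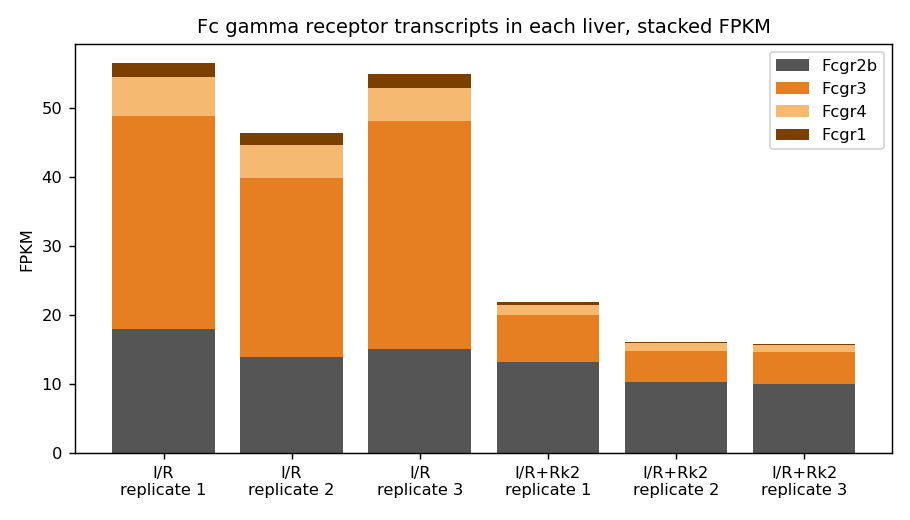
Stacked levels (FPKM, linear axis from 0) of the 4 Fcγ receptor transcripts in each of the 6 livers, 1 bar per liver. The summed level is 46.4 to 56.5 FPKM in I/R and 15.9 to 21.9 FPKM in I/R+Rk2 livers, and the Fcgr2b segment is the largest of the bar in the I/R+Rk2 livers only.

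Markers of Kupffer cells and of the sinusoidal endothelium were read beside Fcgr2b. Of 12 Kupffer cell markers, 2 were lower and 10 were not called, against 23.7% lower over all genes tested. Their median log2 fold change was -0.46, with a summed level of 149 to 206 CPM in I/R and 128 to 161 CPM in I/R+Rk2 livers. Cd163, a scavenger receptor, and Cd5l, a secreted macrophage protein, were the 2 that fell, by 1.38 and 0.97 on the log2 scale, and C1qa was at -0.43 (adjusted p = 0.0588). Of 10 tested sinusoidal endothelial markers, 5 were higher and 2 lower, against 20.3% and 23.7% of all genes tested. Their summed level was 170 to 185 CPM in I/R and 195 to 237 CPM in I/R+Rk2 livers. Clec4g and Dnase1l3 rose by 0.97 and 0.93 on the log2 scale, whereas Lyve1 fell by 0.84. The part of these cells in the Fcgr2b values was not tested.

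Fcer1g encodes FcRγ, the ITAM chain that the activating Fcγ receptors need at the cell surface and that several lectin and immunoglobulin-like receptors share. It was at 26.85, 23.77 and 30.90 CPM in the I/R livers and at 9.541, 5.625 and 6.141 CPM in the I/R+Rk2 livers. The groups did not overlap, and within the I/R+Rk2 group replicate 1 stood highest. Fcer1g was 3.83-fold lower, with a log2 fold change of -1.94 ± 0.22 (adjusted p = 0.000982).

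Tyrobp (chr7:30413760-30417585, plus strand) encodes DAP12, the second ITAM adaptor of myeloid cells, which pairs with TREM and SIRPβ receptors. It had 34.46, 32.47 and 37.19 CPM in the I/R livers and 11.18, 7.816 and 8.167 CPM in the I/R+Rk2 livers, with no overlap. The log2 fold change of -1.94 ± 0.16 (adjusted p = 0.000366) was close to that of Fcer1g. In FPKM, Tyrobp stood at 1.52 ± 0.09 times Fcer1g in I/R and at 1.52 ± 0.12 times in I/R+Rk2 livers (SD, n = 3), and these ranges overlapped.

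The proportion of adaptor to receptor transcripts was higher in the I/R+Rk2 livers. Fcer1g over the sum of Fcgr1, Fcgr3 and Fcgr4 in FPKM was 1.12, 1.06 and 1.10 under vehicle and 1.49, 1.29 and 1.37 under Rk2, without overlap. These 6 values are a description, and no test of this proportion was run.

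Lyn (chr4:3678115-3813122, plus strand), the Src-family kinase that can phosphorylate both ITAMs and ITIMs, was at 46.30, 43.40 and 45.17 CPM in the I/R livers and at 24.88, 27.21 and 24.26 CPM in the I/R+Rk2 livers. Both groups were tight, with SDs of 1.46 and 1.56 CPM, and they lay far apart. Its log2 fold change of -0.82 ± 0.09 (adjusted p = 0.000753) was the smallest among the 8 genes that passed, at 1.76-fold lower, and did not reach the 2-fold limit. A lincRNA gene, Gm26857, overlaps 248 exonic bases of Lyn on the opposite strand, and the strand setting of the counting was not given in the sources used here.

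Syk (chr13:52583173-52648792, plus strand) encodes the kinase that docks on phosphorylated ITAMs. It had 26.75, 30.79 and 37.07 CPM in the I/R livers and 15.93, 7.490 and 7.737 CPM in the I/R+Rk2 livers. I/R+Rk2 replicate 1 stood well above the other livers of its group, yet lay below every I/R liver. Syk fell by 1.60 ± 0.30 on the log2 scale (adjusted p = 0.00589), or 3.03-fold, and without 1 liver at a time the log2 fold change ranged from -2.06 to -1.40.

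Lyn over Syk in FPKM was 2.28, 2.13 and 1.96 under vehicle and 2.63, 4.95 and 4.26 under Rk2. The groups did not overlap, and the replicate 1 liver with the highest Syk of the I/R+Rk2 group had the value closest to the I/R livers. The implied length of Syk varied from 4499 to 5514 bases between livers, which enters this ratio.

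Btk (chrX:134542336-134583570, minus strand) encodes a Tec-family kinase known from B cells and also used by myeloid cells downstream of ITAM receptors. It was the scarcest of the 9 genes in FPKM, with 14, 49 and 45 counts under vehicle and 3, 4 and 0 counts under Rk2, or 0.7299, 1.912 and 1.794 CPM against 0.1261, 0.1184 and 0 CPM. No I/R+Rk2 liver came above the level of 4 counts, and the groups did not overlap. Pooled over livers and scaled by library size, Btk was 16.3-fold lower, with an exact 95% interval of 7.65 to 41.5 that covers counting error only. The edgeR log2 fold change was -3.94 ± 0.66 (adjusted p = 0.0036), and its size depends on how such low counts are moderated. Its direction was set in advance, since the filter on low counts kept Btk through the I/R livers alone. B cell markers were near the floor in both groups: none of the 6 measured was tested, no library held more than 18 counts of any, and their sum was 0.261 to 0.957 CPM in I/R and 0.983 to 1.27 CPM in I/R+Rk2 livers. Pax5 and Blk had 0 counts in every I/R liver.

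**Figure D3:**
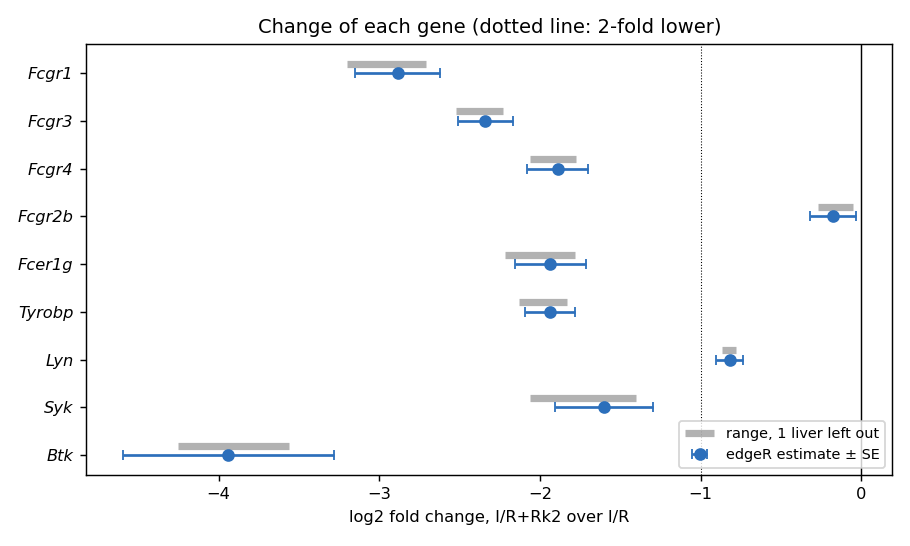
Log2 fold change of each gene, I/R+Rk2 over I/R, from edgeR with its SE (blue), and the range of the estimate when 1 liver is left out (grey). All but 1 estimate lie left of 0 by far more than their SE, from -3.94 for Btk to -0.82 for Lyn, and Fcgr2b lies at -0.18.

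In order of level per length, the I/R livers had Tyrobp (60.92 ± 5.22 FPKM, SD, n = 3) above Fcer1g (40.34 ± 5.22), Fcgr3 (29.85 ± 3.66), Fcgr2b (15.73 ± 2.06), Lyn (13.86 ± 1.01), Syk (6.532 ± 0.353), Fcgr4 (5.080 ± 0.496), Fcgr1 (1.951 ± 0.175) and Btk (0.5629 ± 0.2262). Only Fcgr2b and Lyn had overlapping ranges among neighbours in that order. The I/R+Rk2 livers had Tyrobp (14.21 ± 3.34) above Fcgr2b (11.23 ± 1.72), Fcer1g (9.473 ± 3.028), Lyn (7.206 ± 0.441), Fcgr3 (5.316 ± 1.303), Syk (1.968 ± 0.736), Fcgr4 (1.219 ± 0.284) and Fcgr1 (0.2301 ± 0.0834), while Btk was listed at 0 in replicate 3. Here the ranges of Tyrobp and Fcgr2b, of Fcgr2b and Fcer1g, of Lyn and Fcgr3, and of Syk and Fcgr4 overlapped. In FPKM, Fcgr2b moved from the fourth to the second place and Fcgr3 from the third to the fifth. With counts per kilobase of the longest transcript, Fcgr3 made the same move, while Fcgr2b went from the fifth to the fourth place, below Lyn in both groups.

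The livers of a group ranked alike for many of the genes. I/R replicate 3 was the highest liver of its group for 6 of the 9 genes, and I/R replicate 2 was the lowest for 7. In the I/R+Rk2 group, replicate 1 was the highest for 8 of the 9. The genes are therefore not independent readings of the treatment, since they share the livers and move with them.

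Other kinases next to ITAMs were divided. Of 7 tested genes from a list of 10, 3 were lower and 1 higher, and the median log2 fold change was -0.18. Beside this and the counts that follow for other lists, 23.7% of all genes tested were lower and 20.3% higher. Fgr, a Src-family gene of myeloid cells, fell by 2.93 on the log2 scale, more than Lyn in value, and Src fell by 0.95. Tec, the founder of the family of Btk, was 0.54 higher on the log2 scale (adjusted p = 0.00742), a call that was lost with library size alone as the scaling (adjusted p = 0.0591) and in the FPKM fits.

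Adaptors and effectors that act after SYK fell more often than they rose. All 28 listed genes were tested, with 17 lower, 1 higher and a median log2 fold change of -1.21. Lcp2, which encodes the scaffold SLP-76, fell by 2.78 on the log2 scale. Pik3ap1, an adaptor of phosphoinositide 3-kinase, and Hcls1, a cortactin relative of blood cells, both fell by 1.91, and Prkcd, a protein kinase C gene, fell by 1.11. Plcg1, the broadly expressed phospholipase Cγ gene, was the only called gene in the other direction, at 0.52 (adjusted p = 0.00564).

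Genes that restrain ITAM signals moved down as well. Among 14 tested inhibitors, 11 were lower, 2 higher and 1 not called, with a median of -1.05. Ubash3b, a phosphatase that acts on SYK, fell by 2.42 on the log2 scale, Sla by 1.98, the ubiquitin ligase gene Cbl by 1.45 and the phosphatase gene Ptpn11 by 0.55. Csk, the kinase that holds Src-family kinases inactive, was 0.52 higher and Inppl1, which encodes the inositol phosphatase SHIP2, was 0.34 higher. The Csk call was lost with library size alone as the scaling (adjusted p = 0.0685) and in the 3 FPKM fits (0.238 to 0.28). The Inppl1 call was lost with library size alone (adjusted p = 0.326), in the 3 FPKM fits (0.314 to 0.349) and without I/R replicate 2 or 3 or I/R+Rk2 replicate 1 or 2 (0.0501 to 0.0955).

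Receptors listed for ITIMs, the class to which Fcgr2b belongs by function, fell in 11 of 14 tested genes, with 1 higher. Their median log2 fold change was -2.21, and which mouse proteins on the list, such as CD33, carry the motif was not checked. Pirb fell by 3.17, Cd33 and Cd300lf each by 2.97, and Cd300a by 2.75 on the log2 scale. Ceacam1, an adhesion receptor that hepatocytes and endothelium also express, was 0.54 higher (adjusted p = 0.00676), a call not made in FPKM (adjusted p = 0.0915).

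Genes listed for receptors that couple to FcRγ or DAP12 fell without exception among those tested. Whether each listed gene, such as Treml2, encodes such a receptor was not checked, and the untested Hcst and Cd247 encode adaptors. All 14 tested of 25 listed were lower by more than 2-fold, against 11.4% of all genes tested. Their median was -2.98, beside -1.94 for each of the 2 adaptor genes, a difference that was not tested. Clec4n, which encodes Dectin-2, fell by 3.82 on the log2 scale, Clec4e, which encodes Mincle, by 3.10, Trem1, an amplifying receptor of neutrophils and monocytes, by 2.79 and Cd300ld by 1.91. Genes at low counts in both groups were not among the 14, since the filter on low counts keeps a gene that is high in either group. A gene kept through the I/R livers alone can only come out lower, such as Sirpb1a, at 55 to 91 counts in I/R and 0 to 4 in I/R+Rk2 livers. The count of 14 and the median carry that limit. Other lists that hold such genes share it, such as the adaptors with Card9, at 12 to 37 counts in I/R and 0 to 5 in I/R+Rk2 livers.

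Fc receptors outside the Fcγ family were mostly too scarce to test. Of 11 listed, 3 were tested, with none lower and 1 higher, and their median was 0.16. Fcgrt, which encodes the neonatal Fc receptor that recycles IgG in hepatocytes and endothelium, was 0.45 higher (adjusted p = 0.0122), a call that was lost with library size alone (adjusted p = 0.0641) and in the 3 FPKM fits (0.226 to 0.258). Pigr, the transporter of polymeric IgA into bile, had a log2 fold change of 0.16 (adjusted p = 0.176), and Trim21, a cytosolic Fc receptor, had 0.00 (adjusted p = 0.996). Fcrla and Fcer2a, genes of B cells, stayed at 6 counts or fewer in every library.

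Of 13 genes listed for ligands of the receptors, 4 could be read. Jchain, which is among the 4, encodes the joining chain of IgA and IgM and not an Fcγ receptor ligand. The pentraxins Apcs and Crp, hepatocyte products that bind Fcγ receptors, fell by 1.34 and 0.47 on the log2 scale. The Crp call was lost without I/R replicate 1 (adjusted p = 0.0768) or I/R+Rk2 replicate 2 (adjusted p = 0.0558). Ptx3 and Jchain were near the floor, with at most 39 and 16 counts per library and adjusted p of 0.787 and 0.492. The immunoglobulin heavy and light chain genes on the list were not found among the rows of the count table, so IgG transcripts were not read here.

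Of 21 genes of phagocytosis, 10 were lower and 1 higher, with a median of -0.86. Itgam, the CD11b integrin chain, fell by 3.87 on the log2 scale, Myo1f, a myosin of leukocytes, by 3.21, and the scavenger receptor gene Msr1 and the actin regulator gene Coro1a each by 2.05. Lamp1, a lysosomal membrane gene of all cells, was 0.29 higher, a call that 9 alternatives did not keep. Among 15 myeloid transcription factor genes, 6 were lower and 2 higher, with a median of -0.25. Runx1 fell by 3.04, Spi1 by 1.86 and Nfe2 by 1.51 on the log2 scale, whereas Cebpa, which is abundant in hepatocytes, was 0.66 higher and Cebpe, a granulocyte factor gene, was 1.08 higher.

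**Figure D4:**
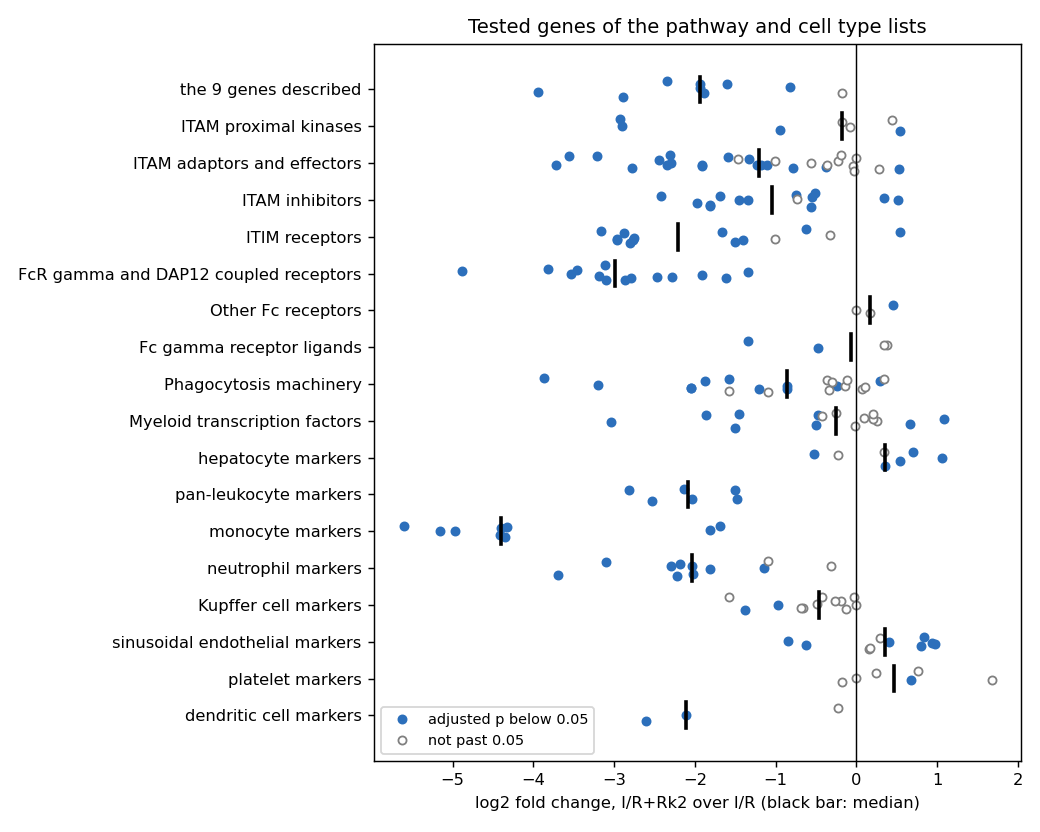
Log2 fold change, I/R+Rk2 over I/R, of the tested genes in each pathway and cell type list with at least 3 tested genes; filled points passed an adjusted p of 0.05, open points did not, and black bars are medians. Medians lie left of the 9 genes (-1.94) for monocyte markers (-4.40), genes listed for receptors that couple to FcRγ and DAP12 (-2.98) and ITIM receptors (-2.21). They also do for dendritic cell (-2.11), pan-leukocyte (-2.08) and neutrophil markers (-2.04). Medians of the other Fc receptors (0.16) and of the sinusoidal endothelial (0.35), hepatocyte (0.36) and platelet markers (0.46) lie right of 0, with 2 of 10 endothelial markers called lower.

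Further marker lists were measured because the receptors occur in many cell types. The monocyte markers Vcan, Ccr2 and Ms4a6c fell, with log2 fold changes of -5.61, -4.41 and -4.33. The neutrophil markers Lcn2, Mmp8 and Csf3r also fell, with values of -3.70, -2.22 and -2.19. Cd53, Cytip and Cd52, present across leukocytes, fell by 2.53, 2.14 and 2.03. None of the 7 natural killer cell markers was tested, with at most 10 counts in any library and 0.678 to 1.16 CPM summed in I/R against 0.614 to 1.01 CPM in I/R+Rk2 livers, and of the T cell list only Cd4 was tested (log2 fold change 1.06, adjusted p = 0.233). Of 3 dendritic cell genes tested, 2 were lower, Itgax by 2.61 and Cd209a by 2.11, from no more than 1.57 CPM on average. Kit, the only tested mast cell marker, fell by 0.77, and Ppbp was the only called platelet marker of 6 tested, 0.68 higher. These calls for Itgax, Cd209a, Kit and Ppbp were each lost without some single livers. Itgax and Cd209a were also kept by the filter on low counts through the I/R livers alone. Of 7 hepatocyte markers, 4 were higher, among them Ttr by 1.06 and Alb by 0.70, and Hnf4a was lower by 0.52. The Alb call was lost without I/R replicate 1 (adjusted p = 0.0613), I/R+Rk2 replicate 2 (0.0612) or I/R+Rk2 replicate 3 (0.0632), and with limma on FPKM without the filter (0.17).

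The genes next to the receptor cluster on chromosome 1 were read as well, from 100 kb before Fcgr2b to 100 kb after Fcer1g. This window was chosen after values had been seen. Of 15 other tested genes there, 2 were lower, 6 higher and 7 not called, against 23.7% lower and 20.3% higher over all genes tested. Their median log2 fold change was 0.30. Nr1i3 (chr1:171213970-171220701, plus strand), the hepatocyte nuclear receptor CAR, and Apoa2 (chr1:171225054-171226379, plus strand), an apolipoprotein gene, lie between Fcgr3 and Fcer1g and were 1.02 and 0.56 higher on the log2 scale. Fcgr3 and Fcer1g on either side of them were lower. Adamts4 (chr1:171250421-171260637, plus strand), a matrix protease gene, and Atf6, an endoplasmic reticulum stress sensor gene, were the 2 that fell, at -1.0 and -0.41.

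**Figure D5:**
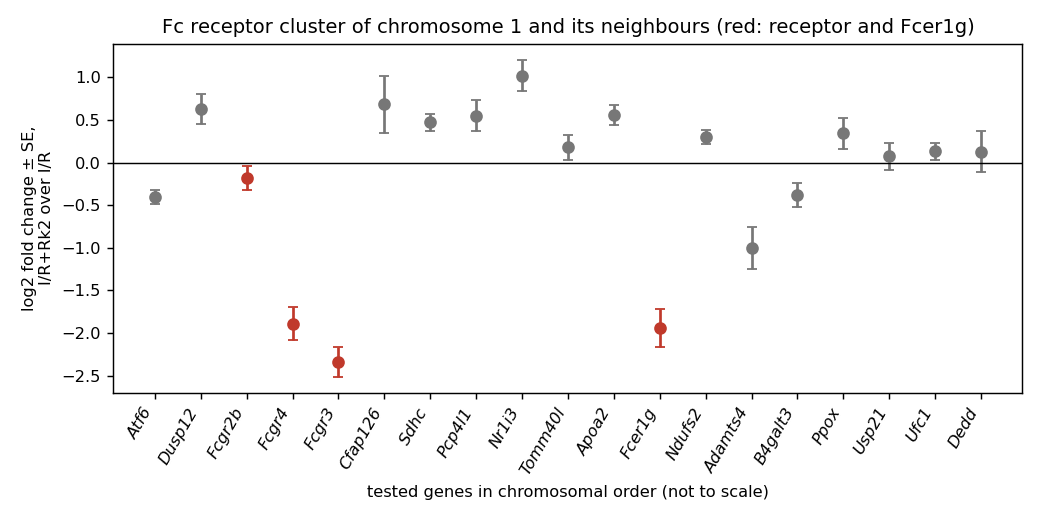
Log2 fold change ± SE (edgeR), I/R+Rk2 over I/R, of the tested genes from 100 kb before Fcgr2b to 100 kb after Fcer1g, in chromosomal order and not to scale; Fcγ receptor genes and Fcer1g are red and other genes grey. Fcgr4, Fcgr3 and Fcer1g lie at -1.89, -2.34 and -1.94 among neighbours that lie between -1.0 and 1.02, and Fcgr2b lies at -0.18.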

How the data were processed

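The authors aligned the reads with HISAT2 2.2.1 and quantified them with StringTie 1.3.3 (mm10, per the submitters' processing notes). They deposited whole-number counts per gene and FPKM values. How the counts were taken from StringTie, and with which annotation and strand setting, was not given in the sources used here. Counts were tested in R 4.3.3 with edgeR 4.0.16 (filterByExpr, TMM, quasi-likelihood F test, no covariates) across 12411 genes, with Benjamini-Hochberg adjustment. SEs are the absolute log2 fold change over the square root of F. The script was tested on simulated data. DESeq2 1.42.0, limma 3.58.1 on log2(FPKM + 1), other scalings and filters, a replicate block and leaving out each liver were alternatives. Levels between genes were compared in FPKM or counts per kilobase, and the ratio of Fcgr3 to Fcgr2b counts was compared between groups. The 9 genes and the lists were chosen with earlier results of these data known. All 9 genes were named, with up to 4 tested genes of smallest p per pathway list, called genes against the majority of a list, up to 3 per marker list, and the 3 genes most correlated with Fcer1g, Fcgr2b and Btk. A gene that this rule names is not reported here. Genes named from the chromosome 1 window, low-count genes given as floors and the ratios were chosen after their values were seen. The labels number the livers but name no animals, so p-values measure the spread between these samples. The text draws on GENCODE M21 and RefSeq GRCm38.p6.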

Additional observations from a re-analysis of the deposited data

How the results depend on the processing

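The 8 genes that fell kept their direction and call under every alternative that gave a value. The log2 fold changes ranged from -3.20 to -1.26 for Fcgr1 and from -4.25 to -0.59 for Btk, whose ends nearest 0 come from log2(FPKM + 1), where the pseudocount outweighs low values. Fcgr2b was lower with limma on log2(FPKM + 1) at -0.45 (adjusted p = 0.0364) and on log2(FPKM + 0.1) at -0.49 (adjusted p = 0.0375). Both fits kept genes with a mean FPKM of at least 1. The summed counts of Fcgr2b and Fcgr3 were at -1.04 (edgeR, adjusted p = 0.00155). That sum holds the fall of Fcgr3, so it gives no reading of Fcgr2b alone. The level of Fcgr3 over Fcgr2b was 3.63 in I/R and 0.811 in I/R+Rk2 livers with counts per kilobase of the longest transcript. Counts of higher genes were the least stable. Over all genes, 2516 were higher, against 1320 with library size alone, 1172 and 1148 with limma at the 2 pseudocounts, 1124 with limma and no filter, and 1640 to 2401 with 1 liver left out, the lowest being 1640 when I/R+Rk2 replicate 2 was left out, and 1645 when I/R replicate 3 was. Genes lower by more than 2-fold numbered 1420, against 808 and 839 with limma on log2(FPKM + 1) with and without the filter. Higher pathway genes numbered 9, against 4 with library size alone and 3, 3 and 2 with limma. Higher marker genes numbered 10, against 4 with limma and no filter and 5 to 8 with 1 liver left out, the lowest being 5 when I/R replicate 1 was left out, and 6 when I/R replicate 3 was. Pigr changed sign with library size alone (-0.002775) and with limma (-0.004663, -0.004675 and -0.004663), Trim21 with relative log expression (0.01175), upper-quartile scaling (0.05029), DESeq2 (0.01645), the replicate block (0.008941) and with 1 liver left out (-0.1864 to 0.1637), and Ptx3 without I/R+Rk2 replicate 3 (-1.184, in a range up to 1.20 with 1 liver left out), all without passing the threshold. The cause of these changes was not tested. Deviations from the group means correlated at -0.0313, 0.0477 and -0.0243 between same-numbered livers, and at -0.0561 to 0.0757 between livers of different numbers. With 3 livers per group, these values cannot show whether same-numbered livers were handled together. A fit with the replicate number as a block called 8 of the 9 genes lower, and 2595 lower and 2118 higher genes in all. Depth limits Btk, where 3 counts were worth up to 0.184 CPM.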

Other observations

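As a description over the 6 libraries, with no test, the genes whose log2(CPM + 1) followed Fcer1g most closely among 11390 genes were Tes, which encodes a focal adhesion protein (r = 0.9996), Exosc1, an exosome subunit gene (r = 0.9994), and Rbm27 (r = 0.9985). On average Tes was at 16.4 CPM under vehicle and 3.40 CPM under Rk2. For Fcgr2b the closest were Borcs6 (r = 0.97), Ostf1 (r = 0.9665) and Cfb, the complement factor B gene (r = 0.961), and none of the 3 passed the test between groups, with adjusted p of 0.564, 0.346 and 0.202. For Btk they were Cdk17 (r = 0.9973), Cyp3a57 (r = 0.9957) and E2f3 (r = 0.9951). All the points share their libraries, and 6 points with a large difference between groups give high values for many genes.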
